A study of Mus musculus with 9 samples.

Results

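The Sox2 locus of mouse embryonic stem cells was described from 4 lists of chromatin contacts, as the 330 kb stretch chr3:34540001-34870000 (mm10) that holds Sox2 and its distal enhancer. A member is a bin pair with 1 or both bins in that stretch. There were 216 such pairs of 137744 in all, with 106 of 36274 in the list for H3K27ac in untreated cells, 79 of 28210 for H3K27ac after IAA, 17 of 49630 for CTCF in untreated cells and 14 of 23630 for RAD21 in untreated cells. The lists come from MNase HiChIP, in which chromatin is cut with micrococcal nuclease, ends that lie close together are ligated, and an antibody then enriches the ligated DNA. The cells were of the E14 line with the genotype CTCF AID, grown without serum in a medium with LIF, PD0325901 and CHIR99021, and they either had no IAA or had 12 h of IAA. All groups carry the degron allele. IAA, an auxin, leads to the breakdown of AID-tagged proteins. How much CTCF protein remained, and CTCF and RAD21 contacts after IAA, were not analysed here. The lists hold contacts and no expression values, so the stem cell identity was not checked against markers. The 2 H3K27ac libraries of a condition share 1 list, and so do the 2 for CTCF and the 3 for RAD21, so the values carry no error between replicates. Intervals are 95% and cover counting error only, and pairs that share a bin are not independent.

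Sox2 encodes a transcription factor with an HMG box that works with Oct4 to keep embryonic stem cells pluripotent. In these cells its transcription depends on a cluster of enhancers far downstream, across a stretch with no other protein-coding gene, and that cluster meets the promoter in nuclear space. H3K27ac marks active promoters and enhancers. CTCF binds an asymmetric motif and halts cohesin, the ring complex that contains RAD21, and the loops cohesin extrudes often end where CTCF motifs point toward each other.

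In the GENCODE M21 annotation Sox2 lies at chr3:34650405-34652461 on the plus strand, inside the long non-coding transcript Sox2ot at chr3:34104270-34682619. Sox2 was the only protein-coding gene of the 14 annotated genes in the stretch. The promoter bin chr3:34650001-34652000 holds the start and overlaps a Sox2 exon. The RefSeq start of Sox2, at 34649995, lies 410 bases before the GENCODE start and falls in the bin before, chr3:34648001-34650000, in an intron of Sox2ot. The distal enhancer was taken as the 9 bins of 2 kb in chr3:34744001-34762000, which begin 93.6 kb after the Sox2 start and are intergenic. Positions are given below as the centre of a bin in kb from the GENCODE start, so that the promoter bin is at 0.6 kb and the RefSeq start bin at -1.4 kb.

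The ends of the strongest CTCF and RAD21 pair in the stretch are shown first, because they lie before Sox2 and in the last bin of its enhancer. The left end is the 1 kb bin chr3:34647001-34648000, in a Sox2ot intron, and the right end is chr3:34760001-34761000, which is intergenic and lies in the last distal enhancer bin. Each line gives 100 bases of the mm10 plus strand with the match to the CTCF motif core in capitals.
Sox2 side, chr3:34647844-34647943: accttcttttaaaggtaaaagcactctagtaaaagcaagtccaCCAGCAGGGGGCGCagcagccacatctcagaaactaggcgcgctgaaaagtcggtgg
distal enhancer side, chr3:34760059-34760158: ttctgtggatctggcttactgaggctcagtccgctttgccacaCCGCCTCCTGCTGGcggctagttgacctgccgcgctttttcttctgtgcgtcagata
The core was searched by its 14 positions with up to 1 mismatch, on both strands. The match on the Sox2 side was exact, stood on the plus strand and began -2.5 kb from the Sox2 start. That on the enhancer side had 1 mismatch, stood on the minus strand and began 109.7 kb after the start. The motifs thus point toward each other, 112215 bases apart. They are compared below along the strand of the motif with 3 other anchors, again with the core in capitals.
anchor at -48.9 kb, plus strand, 1 mismatch, chr3:34601296-34601319: agaggCCAGAAGAGGGCAGtggtt
anchor at -9.9 kb, minus strand, 1 mismatch, chr3:34640891-34640914: tgcgtCCAATAGGGGGCGCtggcg
anchor at -2.9 kb, plus strand, exact, chr3:34647882-34647905: gtccaCCAGCAGGGGGCGCagcag
anchor at 110.1 kb, minus strand, 1 mismatch, chr3:34760097-34760120: agccgCCAGCAGGAGGCGGtgtgg
anchor at 453.1 kb, minus strand, 1 mismatch, chr3:35103425-35103448: aagttTCACCAGGGGGCGCtccca
Of the 13 CTCF anchor bins of the members 8 held a match, 3 of them exact, and of the 12 RAD21 anchor bins 4 did, 1 of them exact. Over the whole lists 41.7% of 34038 CTCF anchor bins and 46.7% of 21831 RAD21 anchor bins held a match with up to 1 mismatch, and 12.6% and 15.6% an exact one. The CTCF bins at -217.9, -10.9, -1.9, 14.1 and 924.1 kb and the RAD21 bins at -7.9, -1.9, -0.9, 18.1, 95.1, 106.1, 111.1 and 122.1 kb held none. A match is a run of letters and no measure of binding.

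CTCF and RAD21 pairs joined the region just upstream of Sox2 to the distal enhancer. The pair from -2.9 kb to 110.1 kb had 38 contacts in the CTCF list, where the authors' model predicted 4.99, and 34 in the RAD21 list, where it predicted 3.54. These are 7.62 and 9.59 times the prediction, with the authors' q-values at 1.71e-18 and 2.57e-19. By contacts the pair ranked 3944 of 49630 CTCF pairs and 1665 of 23630 RAD21 pairs, so it was well above the list medians of 14 and 13 contacts and far from the top. The next 4 CTCF pairs by contacts were -9.9 to 110.1 kb with 23, -10.9 to 110.1 kb with 20, -1.9 to 110.1 kb with 18 and -2.9 to 453.1 kb with 16. The next 4 RAD21 pairs were -0.9 to 110.1 kb with 19, -1.9 to 110.1 kb with 17, -2.9 to 453.1 kb with 14 and -7.9 to -2.9 kb with 14. The RAD21 pair with 19 contacts starts from the 1 kb bin that holds the RefSeq start of Sox2. No listed CTCF or RAD21 pair had an end in the 2 kb promoter bin itself.

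The enhancer-side anchor at 110.1 kb was the one with most contacts in both lists, with 6 CTCF partners and 120 contacts and 6 RAD21 partners and 103 contacts. The anchor at -2.9 kb had 4 CTCF partners with 69 contacts and 5 RAD21 partners with 87. A further CTCF anchor at -10.9 kb had 7 partners and 80 contacts but no RAD21 pair. The intergenic anchor at 453.1 kb, outside the stretch, was reached by 5 CTCF pairs and 4 RAD21 pairs. In total 4 bin pairs were in both lists. CTCF pairs spanned 38 to 935 kb and had both bins in the stretch in 6 of 17 cases, while RAD21 pairs spanned 5 to 502 kb and had both in 10 of 14. In the RAD21 list 2 pairs lay inside the distal enhancer, from 95.1 to 106.1 kb with 12 contacts and from 95.1 to 110.1 kb with 13, and the CTCF list had no such pair. At a q-value of 0.01 or less, 10 of the CTCF and 9 of the RAD21 pairs remained.

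**Figure D1:**
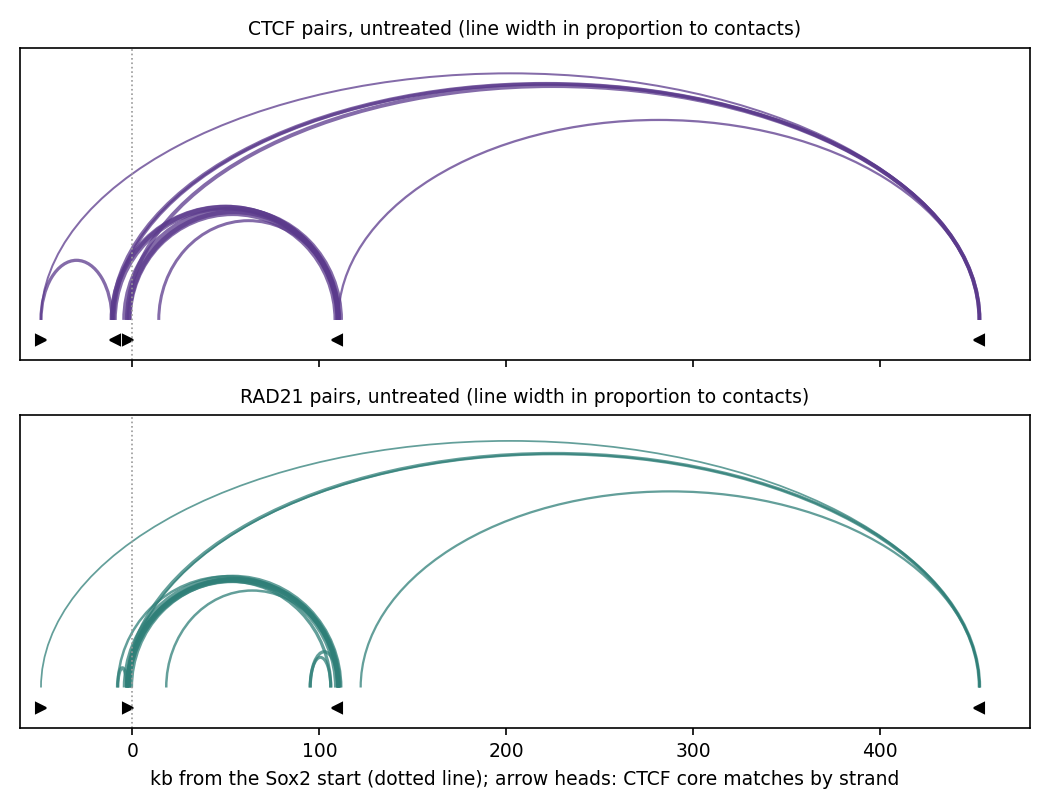
CTCF pairs (top) and RAD21 pairs (bottom) of untreated cells around Sox2, as arcs between bin centres in kb from the Sox2 start, with the line width in proportion to contacts and the height growing with span. Of the members, 11 CTCF and 14 RAD21 pairs fall in the window, and arrow heads show the strand of CTCF core matches; the thickest arc in both panels joins -2.9 kb (arrow to the right) and 110.1 kb (arrow to the left).

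H3K27ac contacts in untreated cells gathered on the distal enhancer. Of the 106 untreated pairs, 25 had no bin in the distal enhancer. The 3 enhancer bins with most H3K27ac coverage without treatment, at 106.6, 108.6 and 110.6 kb, are called the enhancer core below. They had 21, 21 and 23 partners, where the median bin of the list had 1. By partners they ranked 91, 91 and 65 in the untreated list of 27304 bins, and they were not compared with bins of like coverage. The Sox2 promoter bin had 16 partners and the RefSeq start bin 12. The H3K27ac coverage of the core bins was 9351, 8123 and 7891, and that it is the highest of the enhancer follows from their choice. Their ranks were 166, 312 and 350 of 16828 bins present in both lists. The coverage of the promoter bin was 8354, at rank 277.

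The 5 pairs with most contacts without treatment were 94.6 to 106.6 kb inside the enhancer with 69 contacts, 2.6 to 106.6 kb with 54, -1.4 to 106.6 kb with 47, 94.6 to 108.6 kb inside the enhancer with 47, and 0.6 to 108.6 kb with 43, the last level with 0.6 to 106.6 kb. The bin at 2.6 kb holds the end of Sox2. Its 54 contacts with the core stood at 33.2 times the 1.63 predicted by the authors' model, and by contacts they ranked 11 of 5782 untreated pairs that span 90 kb or more. The pair from -1.4 kb with 47 contacts and both promoter pairs with 43 ranked 16 and 18 among these. Over pairs of any span, as in the CTCF and RAD21 ranks above, the pairs with 54, 47 and 43 contacts ranked 629, 959 and 1238 of 36274. For the pair inside the enhancer with 69 contacts the ratio was 11.6, over a much shorter span.

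From the promoter bin the contacts with the enhancer were 43 at 106.6 kb (exact Poisson interval 31.1 to 57.9), 43 at 108.6 kb and 38 at 110.6 kb (26.9 to 52.2). These 3 counts differed by less than their counting error. At 94.6 kb there were 18 contacts (10.7 to 28.4), at 102.6 kb 13 and at 104.6 kb 11 (5.49 to 19.7), and these 3 counts did not differ from each other beyond the counting error. They were lower than those of the core, although the interval at 94.6 kb overlapped that at 110.6 kb. Beyond the enhancer the promoter had 14, 13 and 11 contacts at 112.6, 114.6 and 118.6 kb. Nearer to the gene it had 24, 32, 21 and 20 contacts with the bins at 12.6, 14.6, 16.6 and 18.6 kb, in introns and exons of Sox2ot, and 11, 11 and 12 with those at 42.6, 48.6 and 50.6 kb.

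**Figure D2:**
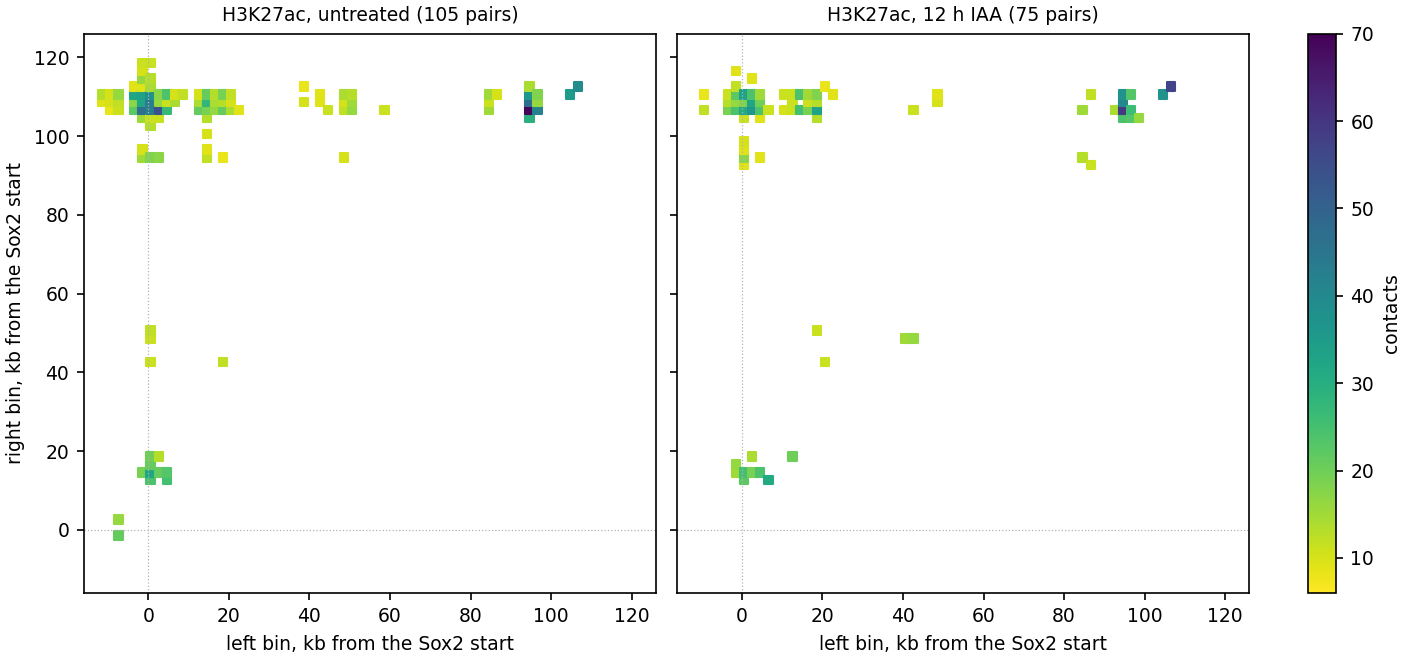
H3K27ac bin pairs around Sox2 without treatment (left, 105 of 106 pairs in the window) and after 12 h of IAA (right, 75 of 79), with the centre of the left and right bin in kb from the Sox2 start on the axes and contacts as colour. Dotted lines mark the Sox2 start; 17 untreated and 11 IAA pairs join the left bins up to the promoter with the enhancer core at 106.6 to 110.6 kb, 25 and 21 join those from the Sox2 end to 24 kb with it, and the rest are spread over the other bins.

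After IAA the promoter and distal enhancer were still joined. The promoter bin had 31 contacts at 106.6 kb, 18 at 108.6 kb and 33 at 110.6 kb, 17 at 94.6 kb and 11 at 104.6 kb, and it was listed after IAA only with 9 and 10 contacts at 96.6 and 98.6 kb. The pair with 102.6 kb was no longer listed. A pair that is not listed has no count in the files, so its contacts may be lower or merely short of the authors' threshold. Of 6 untreated promoter to enhancer pairs 5 were thus listed again, where the share was 42.9% over all untreated pairs and 82.9% over those with 25 or more contacts. Over those 5 the contacts were 153 without treatment and 110 after IAA, a log2 ratio of -0.45 (-0.81 to -0.08). Ratios are IAA over untreated and scaled by the totals of all 15551 pairs in both lists, 347765 and 340816 contacts. The 5 pairs did not move alike, since the counts at 94.6 and 104.6 kb hardly differed and the pair with 108.6 kb gave most of the difference: without the bin at 108.6 kb the ratio was -0.23. Divided by the coverage of both bins, which gives pairs of low-coverage bins more weight in the sum, it was -0.08. Taken over the counts that the authors' models predict with coverage bias it was -0.31, and scaled by the totals of those models -0.70.

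Over the 7 pairs of the promoter bin in both lists the contacts were 209 and 157, and 6 of 7 were lower after IAA. The share of all pairs in both lists with a log2 ratio below 0 was 46.2%. Among 399 start-site bins of protein-coding genes with at least 5 shared pairs, whose median log2 ratio was -0.06, the ratio at Sox2 of -0.38 (-0.69 to -0.08) was number 32 from the lowest, so that 8.02% lay at or below it. These ratios are not divided by coverage, and at Sox2 the ratio was -0.033 with that division and -0.28 over the counts predicted with coverage bias. With the authors' model totals, which lower the ratios of all genes alike, it was -0.63. The nearest by this measure were Gm19426 (-0.38), Safb2 (-0.38) and Ddx6 (-0.37). The promoter had 10 untreated pairs with bins outside the enhancer, and 2 of them were listed again: 24 and 22 contacts with 12.6 kb, and 32 and 25 with 14.6 kb. Over the whole list 30.9% of pairs with 10 to 14 contacts and 55.3% of those with 15 to 24 were listed again. Its pairs with 16.6 and 18.6 kb, at 21 and 20 contacts without treatment, were not listed after IAA, where pairs with a like prediction were listed from 14 and 13 contacts.

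At the RefSeq start bin, -1.4 kb, contacts with the enhancer core were also lower in sum. Its contacts with the enhancer core were 47 and 24 at 106.6 kb, 32 and 16 at 108.6 kb, and 33 and 22 at 110.6 kb. All 3 were lower after IAA, where 46.2% of all shared pairs had a log2 ratio below 0. The sums of 112 and 62 gave a log2 ratio of -0.82 (-1.30 to -0.36). For the promoter bin and the same 3 core bins the sums were 124 and 82, with -0.57 (-0.99 to -0.15). The intervals overlap, and the difference between the bins was not tested. Its other 3 pairs with the enhancer, at 94.6, 96.6 and 104.6 kb with 15, 10 and 15 contacts, were listed without treatment only. Thus 3 of the 6 untreated pairs of the RefSeq start bin with the enhancer were listed again, against 42.9% of all untreated pairs. By contacts, 30.9% of all untreated pairs with 10 to 14 and 55.3% of those with 15 to 24 were listed again.

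The bin at -3.4 kb holds the CTCF core of the strongest CTCF and RAD21 pair. Its contacts were 22 and 19 at 106.6 kb, 17 and 13 at 108.6 kb, and 32 and 11 at 110.6 kb, together 71 and 43 with a log2 ratio of -0.69 (-1.28 to -0.13). The pair with 110.6 kb is the 2 kb pair that contains that CTCF and RAD21 pair, and at 32 to 11 contacts it stood at a log2 ratio of -1.51 (-2.65 to -0.49). The bin at -7.4 kb had 11, 12 and 16 contacts with the core without treatment and none listed after IAA, where 30.9% of all pairs with 10 to 14 contacts and 55.3% with 15 to 24 were listed again. At -9.4 kb the 2 shared pairs held 18 and 20.

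On the other side of the start the sums with the core were lower in some bins and higher in others. For the bin at 2.6 kb they were 54 and 36 at 106.6 kb, 16 and 32 at 108.6 kb, and 17 and 24 at 110.6 kb, together 87 and 92 (log2 ratio 0.11). The first of the 3 was lower and the others were higher after IAA. For the bin at 4.6 kb they were 27 and 24, 11 and 20, and 24 and 15, together 62 and 59 (-0.04). At 12.6 kb they were 45 and 33 in sum (-0.42), and at 16.6 kb 43 and 45 (0.09). At 18.6 kb they were 21 and 33, 13 and 13, and 19 and 18, together 53 and 64 (0.30). At 14.6 kb they were 19 and 25 with 106.6 kb and 21 and 24 with 110.6 kb, while the pair with 108.6 kb had 28 contacts without treatment and was not listed after IAA, where pairs with a like prediction were listed from 9. The bin at 20.6 kb had 14, 10 and 12 contacts without treatment and no listed pair with the core after IAA, and the bin at 50.6 kb had 16, 15 and 13 and none after IAA. Of all pairs, as above, 30.9% with 10 to 14 contacts and 55.3% with 15 to 24 were listed again.

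Summed over the left bins of the stretch up to and including the promoter bin, the 11 shared pairs with the core held 325 and 207 contacts. Their log2 ratio was -0.62 (-0.88 to -0.37), and 10 of 11 were lower after IAA. Of all shared pairs 46.2% had a log2 ratio below 0, or 72.0% when scaled by the authors' model totals. The listed pairs of these left bins spanned 106 to 122 kb, and all shared pairs of 100 to 140 kb had a log2 ratio of sums of -0.09. Here 17 pairs were listed without treatment, 11 after IAA and none after IAA alone, so 64.7% were listed again. The promoter and RefSeq start bins, whose coverage was lower after IAA, gave 236 of the 325 contacts. Without them the 5 other pairs held 89 and 63, with -0.47 (-0.96 to 0.01). For all 11 the ratio was -0.53 when divided by the coverage of both bins and -0.49 over the counts predicted with coverage bias. Summed over the bins from the Sox2 end to 24 kb, the 17 shared pairs held 330 and 342, a log2 ratio of 0.08 (-0.14 to 0.30). It was -0.25 when divided by the coverage and 0.17 over the predicted counts. Here 25 pairs were listed without treatment, 21 after IAA and 4 after IAA alone, so 68.0% were listed again, close to the share on the other side, where all untreated pairs had 42.9%. Farther on, from 26 to 60 kb, 11 pairs with the core were listed without treatment and 3 after IAA, and the 2 in both lists had 24 and 19 contacts (log2 ratio -0.31, interval -1.26 to 0.62). The untreated counts of the 11 ran from 9 to 16, and over the whole list 30.9% of pairs with 10 to 14 contacts were listed again. The place of this split was chosen after the values were seen, so it is a description and its difference was not tested.

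**Figure D3:**
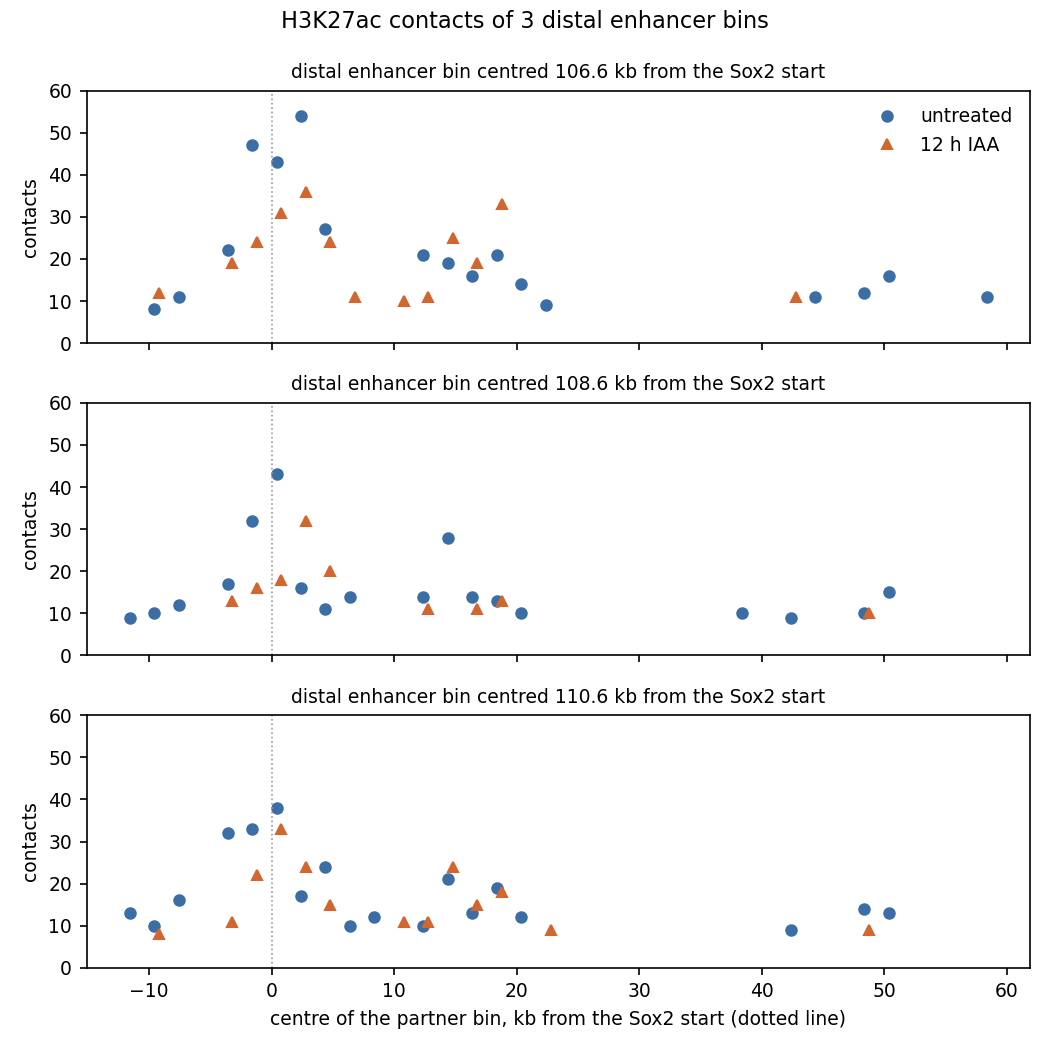
Contacts of each of the 3 enhancer core bins (panels) with bins around Sox2, untreated (circles) and after 12 h of IAA (triangles), by the centre of the partner bin in kb from the Sox2 start; bins without a listed pair have no symbol. From -3.4 kb to the promoter bin the circles stand above the triangles, as in 47 against 24 and 43 against 18 contacts, whereas from 2.6 to 18.6 kb the order varies between bins.

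Pair by pair, these differences did not pass the test. A two-sided exact binomial test, adjusted by Benjamini-Hochberg over all 15551 shared pairs, called 0 of the 50 shared pairs of the stretch at an adjusted p under 0.05, and it called 0.135% of all. The smallest p was that of 0.6 to 108.6 kb, at 43 and 18 contacts, with a log2 ratio of -1.23 (-2.11 to -0.40), an unadjusted exact p of 0.00193 and an adjusted p of 0.384. Next were -3.4 to 110.6 kb with an exact p of 0.00196, adjusted 0.385, and -1.4 to 106.6 kb, at a log2 ratio of -0.94 (-1.71 to -0.20), with 0.00879, adjusted 0.687. Among all shared pairs these p-values ranked 78, 79 and 199. At an unadjusted p under 0.05 the exact binomial test marked 5 of the 50, 4 of them lower after IAA, against 4.41% of all shared pairs. The test compares 2 pooled libraries and not the conditions. Under scaling by the totals of the authors' models, which lowers each log2 ratio by 0.25, the first of these pairs passed by the exact binomial test, with an adjusted p of 0.0448, and so did 0.386% of all shared pairs. At an unadjusted p under 0.05 that scaling gave 9 of the 50, all lower after IAA, where 7.81% of all shared pairs passed and 7.33% passed as lower.

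Over the 50 shared pairs the contacts were 1199 and 1066, a log2 ratio of -0.14 (-0.26 to -0.02), or -0.068 when scaled by shared pairs of like span, and the median log2 ratio was -0.11, where that of all shared pairs was 0.03. The ratio was below 0 in 28 of 50 (56.0%), against 46.2% of all shared pairs. It was -0.5 or less in 10, against 11.6% of all shared pairs, and 0.5 or more in 6, against 11.8%. With the authors' model totals the number below 0 was 39, and over all shared pairs the share below 0 was then 72.0%. By span, the 20 shared pairs of 100 to 140 kb, which include the pairs of the promoter and RefSeq start bins with the core, had a log2 ratio of sums of -0.34, where all pairs of that span had -0.09. The 14 shared pairs of 60 to 100 kb had 0.05, where all had -0.06. At 20 to 60 kb 2 of 13 untreated pairs were listed again (15.4%), where the whole list had 5025 of 11675, and at 6 to 20 kb 14 of 22 were (63.6%), where it had 48.6%.

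**Figure D4:**
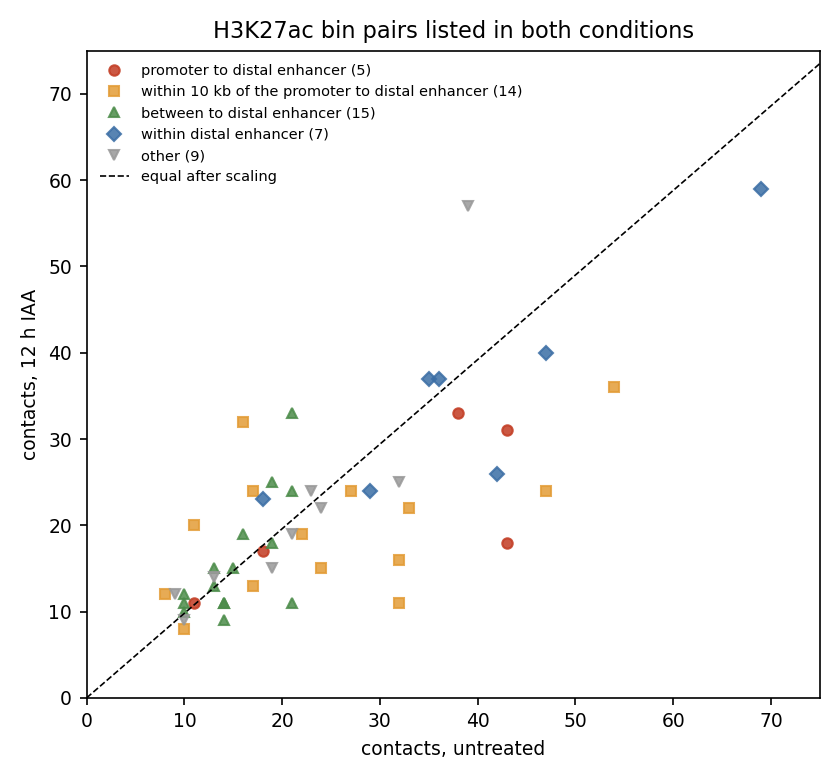
Contacts of the 50 H3K27ac bin pairs listed in both conditions, untreated on the x axis and after 12 h of IAA on the y axis, 1 symbol for each pair by the position of its bins. The dashed line marks equal contacts after scaling by all shared pairs. Of the 50, 28 pairs lie below it, among them 4 of 5 promoter to enhancer pairs, where 46.2% of all shared pairs had a log2 ratio below 0.

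Inside the distal enhancer 7 of 8 untreated pairs were listed again; their median was 35.5 contacts, and of all untreated pairs with 25 or more contacts 82.9% were. Between 94.6 and 106.6 kb there were 69 and 59 contacts, the highest count of the stretch in both conditions. From 94.6 kb there were also 29 and 24 at 104.6 kb, 47 and 40 at 108.6 kb, and 36 and 37 at 110.6 kb. From 96.6 kb there were 42 and 26 at 106.6 kb and 18 and 23 at 110.6 kb, and between 104.6 and 110.6 kb there were 35 and 37. Over these 7 pairs the sums were 276 and 246, a log2 ratio of -0.14 (-0.39 to 0.12), an interval that includes 0. A pair from 96.6 to 108.6 kb was listed without treatment only, with 16 contacts, and pairs from 96.6 and 98.6 to 104.6 kb after IAA only, with 23 and 16. The pair that leaves the enhancer toward the next bin, 106.6 to 112.6 kb, had 39 and 57 contacts, a log2 ratio of 0.58 (-0.04 to 1.20), and stood second after IAA. The 5 pairs with most contacts after IAA were this one and 4 inside the enhancer, the first at 59 and the last 2 at 37.

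Bins between the gene and the enhancer, from 12.6 to 92.6 kb, had 37 untreated pairs with the enhancer, 20 after IAA and 15 in both (40.5% of the untreated ones, against 42.9% over the whole list), whose sums of 230 and 237 gave a log2 ratio of 0.07 (-0.20 to 0.34). Bins within 10 kb of the promoter bin had 26, 19 and 14 (53.8%), with sums of 350 and 276 and a log2 ratio of -0.31 (-0.55 to -0.08). Of the 25 untreated pairs with no enhancer bin 8 were shared (32.0%), with 151 and 140 contacts and -0.08 (-0.42 to 0.26). Among pairs with no enhancer bin, 4.6 to 12.6 kb with 25 contacts was listed without treatment only and 6.6 to 12.6 kb with 31 after IAA only. After IAA the core was also listed in 3 pairs that reach past the stretch, with 12 contacts from -643.4 to 106.6 kb, 8 from -643.4 to 108.6 kb and 7 from 106.6 to 1072.6 kb. All 3 were listed after IAA only, where 55.1% of all IAA pairs had also been listed without treatment. Untreated pairs with a like prediction were listed from 7 contacts, so the pairs with 8 and 7 lay close to that limit.

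H3K27ac pairs whose bins hold a CTCF or RAD21 pair were set beside the others. The 8 shared pairs that hold either had 242 and 198 contacts, a log2 ratio of -0.26 (-0.54 to 0.02). The 4 shared pairs that hold a CTCF pair had 96 and 65 contacts, a log2 ratio of -0.53 (-1.01 to -0.06), and the 6 that hold a RAD21 pair had 211 and 166, -0.32 (-0.62 to -0.02). Of the 4 with a CTCF pair, that from -3.4 to 110.6 kb, at 32 and 11 contacts, gave most of the difference. The pairs of 110.6 kb with -9.4, -1.4 and 14.6 kb had 10 and 8, 33 and 22, and 21 and 24. The 42 that hold neither had 957 and 868, -0.11 (-0.25 to 0.02). These intervals overlap, the difference between the groups was not tested, and 8 of the 10 untreated pairs that hold a CTCF or RAD21 pair were listed again against 42 of the 96 others. The median contacts of these groups were 21.5 and 14, and over the whole list 55.3% of pairs with 15 to 24 contacts and 30.9% of those with 10 to 14 were listed again.

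In all, 50 of 106 untreated pairs were listed again after IAA, 47.2% (95% Wilson interval 37.9 to 56.6), where the whole list had 42.9%. Of the 79 pairs after IAA, 63.3% had been listed without treatment, where the whole list had 55.1%. When each bin was free to move by 1 bin, 84.9% of the untreated pairs had a partner after IAA and 87.3% of the IAA pairs had one without treatment, where the whole lists had 65.7% and 75.9%. Most pairs listed once thus lay beside a pair of the other list. The share rose with contacts, from 2 of 10 pairs with 6 to 9 contacts to 17 of 19 with 25 or more (89.5%), as it did over the whole list, from 14.7% to 82.9%.

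Coverage was lower after IAA at the RefSeq start and promoter bins and higher at the enhancer core. In the 16828 bins of both lists the median log2 coverage ratio was 0.20, and 10.4% of bins had lower coverage after IAA. In the stretch 2 of 27 bins did. They were the RefSeq start bin, with 5007 and 4570, and the promoter bin, with 8354 and 7867. Of all bins 2.13% and 3.67% had ratios at or below theirs. The core bins had 9351 and 11231, 8123 and 10646, and 7891 and 9947. For the second of them, which had the largest ratio of the core, 15.3% of bins had a ratio at or above. The log2 ratios of the core bins stood at 0.07, 0.19 and 0.14 above the median of all bins, and the median of the stretch stood at 0.07 above it. Set against the median ratio, 5 of 27 bins were below it, among them the bin at -3.4 kb (954 and 960), at -0.19 from the median. The bin at 2.6 kb (2952 and 3536) stood at 0.06 above it. Divided by the coverage of both bins, the log2 ratio of all promoter contacts was -0.033 (-0.28 over the counts predicted with coverage bias), that of the whole stretch -0.24 and that within the enhancer -0.21. The division was not run for the bins at -1.4 and -3.4 kb each by itself.

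**Figure D5:**
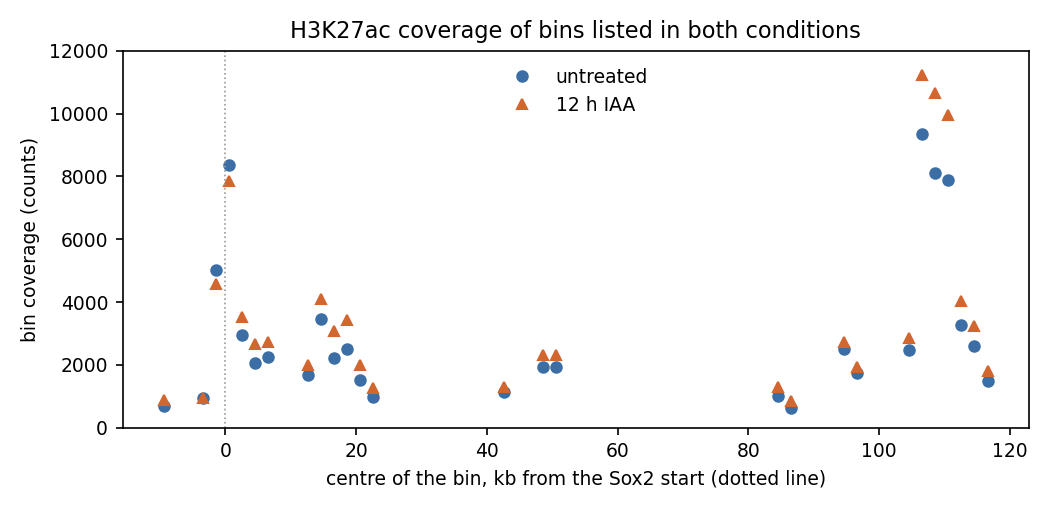
H3K27ac coverage (counts) of the 27 bins of the stretch found in both lists, untreated (circles) and after 12 h of IAA (triangles), by the centre of the bin in kb from the Sox2 start. The triangles lie below the circles at -1.4 and 0.6 kb and above them elsewhere, with the widest gaps in counts at the enhancer core. As log2 ratios, the rises at 16.6, 18.6, 20.6 and 86.6 kb (0.40 to 0.48) were larger than those at the core (0.26 to 0.39).

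Sequence beyond the CTCF core was compared with the same 2 kb bins of the whole lists. The octamer that Oct4 binds, searched exactly on both strands, was found in 2 of 43 H3K27ac bins of the stretch (4.65%), at 6.6 and 18.6 kb and not in the distal enhancer, and in 9.48% of 33558 bins overall. The SOX motif ACAATG, searched likewise, was found in 24 of 43 (55.8%) and in 59.6% overall. The RefSeq start bin held 4 of them, as the only bin of the 43 with 4 or more, and 2.33% of all bins reach that number, so the stretch is at the background. Such matches are letters only, and other forms of either motif were not searched.

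Other regulators of pluripotency, a list of 18 genes, gave the setting for Sox2. Of these, 14 had a listed pair at the start-site bin and 12 a shared one. Their log2 ratios ran from -0.30 to 0.55 with a median of 0.08, and 0 of 12 lay below the -0.38 that Sox2 had without regard to coverage. Of the 399 start-site bins with at least 5 shared pairs, 8.02% lay at or below that value. A count of 0 among so few genes is close to that share. Of the 12, 7 had at least 5 shared pairs, with ratios from -0.30 to 0.17, and the others had 1 or 2 shared pairs. Klf2, a Krüppel-like factor of naive pluripotency, had 303 and 242 contacts and -0.30 (-0.54 to -0.05), and no other interval lay wholly on 1 side of 0. Pou5f1, which encodes Oct4, had 219 and 201 (-0.09), Nanog had 294 and 300 (0.06) and Tbx3 had 294 and 254 (-0.18). The gene list is short and was chosen with results known, so nothing is tested on it.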

How the data were processed

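MNase HiChIP interaction lists, pooled by the authors over 9 libraries into 4 lists, were used. Per the file headers a deposited row is a bin pair with a contact count, the coverage of both bins, an expected count and a probability (fraction) from a contact model, and a q-value; every list ends just under a q-value of 0.05. Bins were 2 kb for H3K27ac and 1 kb for CTCF and RAD21. The build mm10 and the tools Trim Galore, BWA, MACS2 and deepTools are named in the submitters' processing notes, without roles; the names of the deposited lists refer to FitHiC, and the settings of that step are not given in the sources used here. The authors' models rested on 12551236 contacts for untreated H3K27ac, 14629323 after IAA, 2839756 for CTCF and 1517698 for RAD21, and the smallest listed H3K27ac count was 6, which limits precision.

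Pairs in both H3K27ac lists were compared by the exact binomial test (scipy 1.17.1) with Benjamini-Hochberg adjustment over all 15551; sums carry Clopper-Pearson intervals, shares Wilson intervals. The test was checked on simulated counts. Intervals cover counting error only, as each list holds no value per replicate. PCR copies of a molecule cannot be told from separate ones, and the intervals make no allowance for them. The labels do not say whether replicates were separate cultures. A like prediction means within 5%. Named pairs are the promoter to enhancer pairs, the 5 with most contacts per list and the 3 with the smallest p; the bins around the start were added after their values were seen. Alternatives covered scaling, coverage, q-value, bin tolerance, enhancer range and start bin. Members, lists and rules were chosen with earlier results of these data known.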

Additional observations from a re-analysis of the deposited data

How the results depend on the processing

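No paired analysis was possible because each list joins its replicates and holds no value per replicate; alternatives without 1 replicate were not run for that reason. Of 41 combinations of result and alternative, 32 stayed within the counting interval of the reported value, or, for counts, within a factor of 1.5, and of these ratios of sums only that within the enhancer changed sign, from -0.14 to 0.11 with each bin free by 1 bin, where its interval included 0 to begin with. Among alternatives added after seeing the data, the sum of the bins from the Sox2 end to 24 kb with the core, 0.08, became -0.25 with the coverage, and that of the bins up to the promoter, -0.62, stayed between -0.53 and -0.47. The promoter to distal enhancer log2 ratio of -0.45 became -0.079 when contacts were divided by the coverage of both bins. It was -0.82 from the RefSeq start bin, an alternative chosen after seeing the data. Its other alternatives ranged from -0.70 to -0.22. Of these, that without the bin at 108.6 kb (-0.23) and that over the predicted counts (-0.31) were not planned either. The 41 combinations include the alternatives that were not planned for the promoter, the enhancer and the whole stretch. That of all promoter contacts, -0.38, became -0.033 with the coverage and -0.28 over the predicted counts, which take coverage bias into account, and -0.63 with the authors' model totals, -0.56 with each bin free by 1 bin and -0.58 from the RefSeq start bin. The ratio over the whole stretch, -0.14, became -0.39 with the authors' model totals, -0.28 with each bin free by 1 bin, -0.24 with the coverage and -0.068 when scaled by shared pairs of like span, and that within the enhancer became -0.21 with the coverage and -0.39 with the model totals. Freeing each bin by 1 bin also moved the share listed again from 47.2% to 84.9%. With the model totals the count of shared pairs past the threshold went from 0 to 1, the pair from 0.6 to 108.6 kb (adjusted p 0.0448 by the exact binomial test, 60 calls over the whole list), and pairs at an unadjusted p under 0.05 from 5 to 9, all lower, against 7.81% of all shared pairs. The 31 CTCF and RAD21 pairs became 19 at a q-value of 0.01 and 16 with both bins in the stretch. With no mismatch allowed, 3 of 13 CTCF and 1 of 12 RAD21 anchor bins held the core, against 12.6% and 15.6% of all. The cause of these differences was not tested. Depth limits single pairs, whose median count was 14 in the stretch without treatment.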
